A study of Mus musculus with 10 samples.

Results

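The genes examined here were 9 genes of glycolysis and lactate export and Hif1a, listed by name, and they made up 10 of the 24421 gene symbols in the files. RNA seq had been run on a microglia fraction from the cortex of 9-month-old mice in 3 groups, with 2 mice pooled in each library. The WT group (3 libraries) and the APP/PS1 group (4 libraries) are set beside an APP/PS1+N-AS group (3 libraries), called N-AS below. APP/PS1 mice carry transgenes for human amyloid precursor protein with the Swedish mutation and for a mutant presenilin-1, and the sources used here do not name the promoters that drive them. N-AS is N-acetyl sphingosine, given under the skin every day at 30 mg/kg for 8 weeks from 7 months of age. The paper describes the APP/PS1 mice that it compares with N-AS mice as treated with vehicle. The cells had been freed with papain and separated on a density gradient, without a sort on a surface marker, and the methods state that male mice were used. Library totals ran from 8805804 to 19432075 reads, and the genes of the set took from 0.0925% to 0.232% of them.

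Glycolysis turns glucose into pyruvate in the cytosol, and lactate dehydrogenase turns pyruvate into lactate when the pathway runs fast or oxygen is short. Hif1a encodes HIF-1α, the oxygen-regulated subunit of a transcription factor that binds short DNA elements and raises transcription of many glycolytic genes. Microglia, the resident macrophages of the brain, are known to shift toward glycolysis when activated by inflammatory signals. Because a gene's mRNA level is not an enzyme activity, the values below describe transcripts only, and HIF-1α is controlled mainly at the level of its protein.

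Some libraries went against their description or stood apart. Xist, the RNA that coats the silenced X in females, was counted 33 to 37 times per WT library and 5253 to 11188 times per APP/PS1 library. N-AS replicates 1 and 2 held 7024 and 8848 Xist reads, and N-AS replicate 3 held 29. The Y-linked gene Ddx3y had 590 to 1431 reads in WT libraries, 203, 324, 7 and 10 reads in APP/PS1 replicates 1 to 4 and 207, 359 and 993 reads in N-AS replicates 1 to 3. APP/PS1 replicates 1 and 2 and N-AS replicates 1 and 2 thus held reads of both genes above the lowest libraries. Sex-linked transcripts therefore differed between WT and APP/PS1, and genotype and this difference cannot be told apart. WT replicate 3 had a summed level of 8 neuronal markers of 4943 CPM (read counts scaled to library size), against 1480 to 2892 CPM in the other 9 libraries. App was 1406 to 1753 CPM in WT and 1068 to 1394 CPM in APP/PS1, but counts on the mouse gene need not include a human transgene, so this does not check the genotype label.

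The microglial label was checked on 12 defining markers, and none of them was at 0 in any library. Summed over the list, WT libraries held 798 to 1148 CPM, APP/PS1 libraries 2404 to 3037 CPM and N-AS libraries 1502 to 1920 CPM. All 12 were higher in APP/PS1 than in WT, and 9 of the 12 passed the test. Transcripts of other cells were also abundant. The summed level of 8 oligodendrocyte markers was 2272 to 6512 CPM in WT and 1830 to 4534 CPM in APP/PS1. That of 8 astrocyte markers was 2203 to 2601 CPM in WT and 2469 to 3883 CPM in APP/PS1. These 8 did not move together, with 5 higher and 3 lower in APP/PS1 and a median log2 fold change of 0.03. Gfap, among the 8, had means of 14.7 CPM in WT and 735 CPM in APP/PS1. In bulk RNA, fewer cells of a type and less RNA per cell cannot be told apart, and this holds for every value below.

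**Figure D1:**
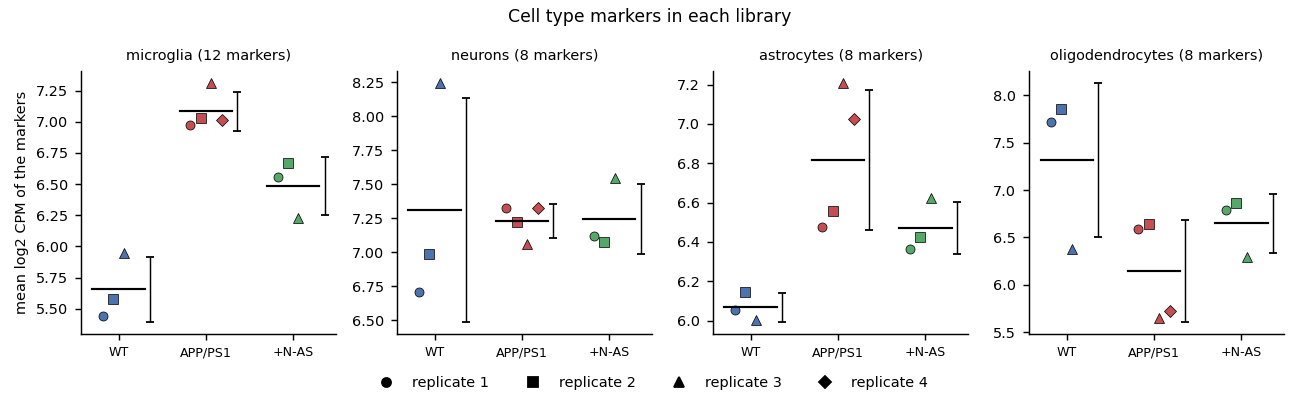
Mean log2 CPM of the markers of 4 cell types in each library; each symbol is a library, the horizontal line is the group mean and the bar is 1 SD. Microglial markers separate the 3 groups without overlap, and WT replicate 3 stands highest for neuronal markers.

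The proximal promoters of the 3 members called in APP/PS1 against WT, and of Pgk1 as a member that was not called, are shown because HIF-1α acts through DNA elements whose core is ACGTG or GCGTG. RefSeq starts of build GRCm38.p6 gave a 250-base upstream window for each of the 10 genes (15 windows, since some have several starts). Hif1a, Hk2, Slc16a3 and Pgk1, each with a single window, are printed 5′ to 3′ on the gene's own strand, ending at the base before the start. Capitals mark ACGTG or its complement CACGT, and in CACGTG the pair of matches share bases.
Hif1a, chr12:73907617-73907866, plus strand: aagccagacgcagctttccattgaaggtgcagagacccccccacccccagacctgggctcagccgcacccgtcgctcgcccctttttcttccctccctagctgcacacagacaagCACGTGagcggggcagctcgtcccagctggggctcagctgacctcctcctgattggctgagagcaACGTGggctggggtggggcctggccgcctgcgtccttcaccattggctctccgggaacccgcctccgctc
Hk2, chr6:82774455-82774704, minus strand: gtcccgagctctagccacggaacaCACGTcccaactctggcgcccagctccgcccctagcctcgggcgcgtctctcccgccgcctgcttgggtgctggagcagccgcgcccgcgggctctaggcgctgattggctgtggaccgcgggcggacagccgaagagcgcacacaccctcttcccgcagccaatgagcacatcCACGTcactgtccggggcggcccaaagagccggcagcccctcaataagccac
Slc16a3, chr11:120948817-120949066, plus strand: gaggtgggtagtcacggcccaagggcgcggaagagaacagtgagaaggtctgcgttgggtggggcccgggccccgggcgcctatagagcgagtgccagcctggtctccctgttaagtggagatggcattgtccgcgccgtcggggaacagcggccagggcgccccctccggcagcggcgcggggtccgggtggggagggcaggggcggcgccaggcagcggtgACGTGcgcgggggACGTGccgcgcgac
Pgk1, chrX:106186850-106187099, plus strand: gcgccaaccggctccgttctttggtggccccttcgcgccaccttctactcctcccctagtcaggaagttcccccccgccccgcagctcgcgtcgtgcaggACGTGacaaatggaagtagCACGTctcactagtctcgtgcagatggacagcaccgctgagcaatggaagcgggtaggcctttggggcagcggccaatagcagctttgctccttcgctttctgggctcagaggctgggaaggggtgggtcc

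Hif1a, Hk2 (hexokinase 2), Slc16a3 (the lactate exporter MCT4) and Pgk1 (phosphoglycerate kinase 1) each held ACGTG on at least 1 strand in this window. On both strands, ACGTG was present in 8 of the 15 windows and in 7 of the 10 genes, and either core was present in 12 windows and all 10 genes. Over 32851 windows of the same length from 27025 symbols, 16.6% held ACGTG, 28.2% held GCGTG and 38.6% held either core. These are shares of windows, so the counts of genes have no share beside them. The background was not matched for GC content, which was 49.6% to 73.6% in the 15 windows. A match is a description of letters and not a bound site, and the windows of 1 gene can overlap each other.

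The first comparison asked how APP/PS1 cells differ from WT cells. Hif1a, Hk2 and Slc16a3 were higher in APP/PS1 than in WT, by 2.40-fold, 1.76-fold and 2.83-fold, and in each of them all 4 APP/PS1 libraries lay above all 3 WT libraries. The other 7 genes did not pass the test. These 3 called of 10 stand beside 3.47% of all 18727 genes tested that were called in this comparison, and beside 2.67% called higher. The genes, and the lists used below, were chosen with earlier results of these data known, so such shares are no test of a set. Groups without overlap occurred in 14.9% of all genes, and in 8.15% with APP/PS1 higher. Over the 10 genes the median log2 fold change was 0.23, against -0.07 over all genes tested, with 8 genes higher and 2 lower. Tests were edgeR's quasi-likelihood test, two-sided, with Benjamini-Hochberg adjustment over all genes and a threshold of 0.05.

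**Figure D2:**
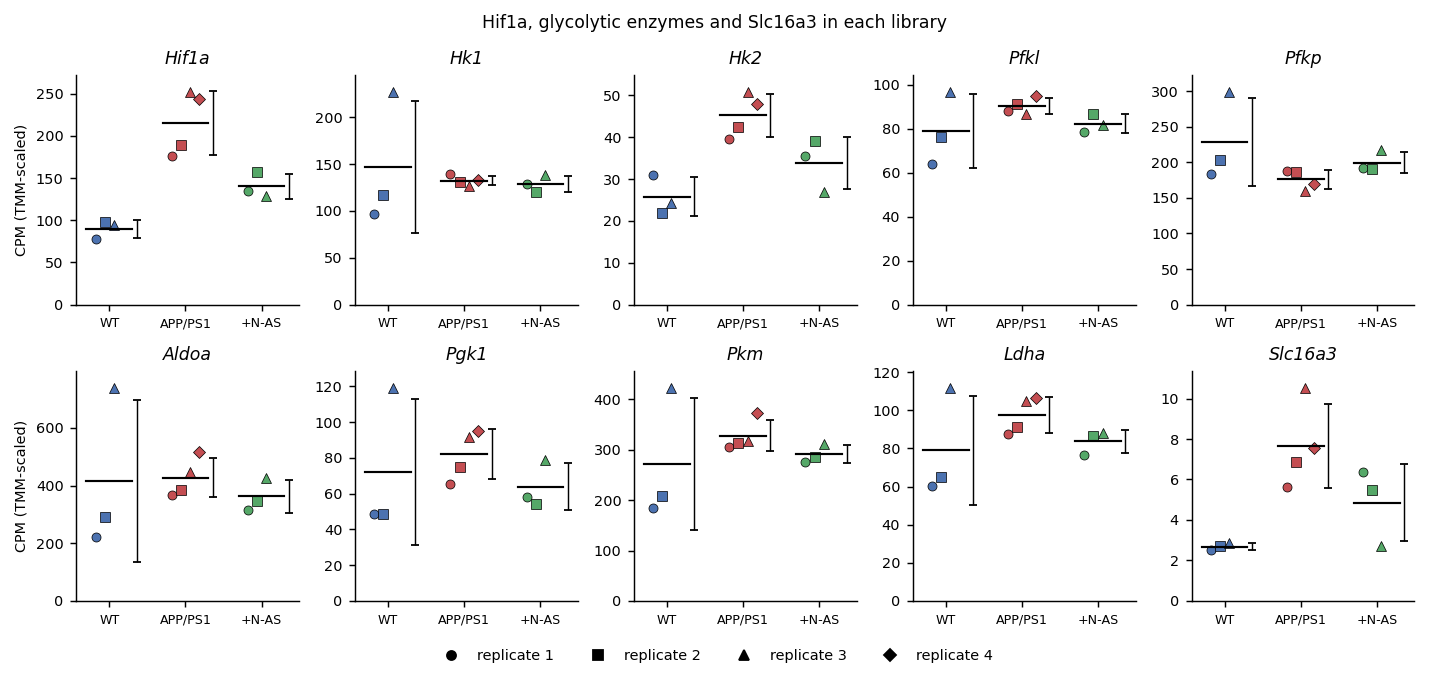
CPM, scaled by TMM factors, of the 10 genes in each library; each symbol is a library, the horizontal line is the group mean and the bar is 1 SD. Hif1a, Hk2 and Slc16a3 are higher in all 4 APP/PS1 libraries than in all 3 WT libraries, and WT replicate 3 lies above the other libraries in 7 of the 10 panels.

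Hif1a (mm10, chromosome 12, 73901375 to 73947530, plus strand) was measured at 77.5, 98.0 and 94.0 CPM in WT replicates 1 to 3. In APP/PS1 replicates 1 to 4 it was 177, 189, 253 and 244 CPM. The lowest APP/PS1 library thus lay well above the highest WT library, and the spread within WT was small. Group means were 216 ± 38.2 CPM (SD, n = 4) and 89.8 ± 10.9 CPM (SD, n = 3), with a log2 fold change of 1.26 (SE 0.17, 95% interval 0.88 to 1.65, adjusted p = 0.00336). Annotated genes overlap Hif1a, namely the antisense Gm15283 and Gm49321 on its own strand, and reads from an overlap cannot be assigned with certainty. The same limit applies to Hk2, Hk1, Pfkp and Aldoa, each overlapped on the opposite strand, and to Pkm, overlapped on its own strand.

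Hk2, the inducible hexokinase that traps glucose as glucose 6-phosphate and can dock on mitochondria, lies on chromosome 6 (82725025 to 82774454, minus strand). It was 30.9, 21.9 and 24.3 CPM in WT replicates 1 to 3. In APP/PS1 replicates 1 to 4 it was 39.6, 42.4, 50.9 and 47.9 CPM. The groups did not overlap, and WT replicate 1 was the WT library closest to APP/PS1. The log2 fold change was 0.82 (SE 0.17, 95% interval 0.44 to 1.19, adjusted p = 0.0254), from means of 25.7 ± 4.65 CPM (SD, n = 3) and 45.2 ± 5.13 CPM (SD, n = 4). By edgeR the call was lost without WT replicate 2 (0.72, adjusted p = 0.093) or without APP/PS1 replicate 2, 3 or 4 (0.77 to 0.85, adjusted p from 0.0515 to 0.0739).

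Slc16a3, which exports lactate with a proton (chromosome 11, 120948480 to 120960868, plus strand), had the lowest level of the set and only 21 to 159 reads in a library. It was 2.5, 2.72 and 2.84 CPM in WT replicates 1 to 3. In APP/PS1 replicates 1 to 4 it was 5.61, 6.86, 10.5 and 7.57 CPM. All APP/PS1 libraries were above all WT libraries, and the APP/PS1 libraries spread more widely than the WT libraries. The log2 fold change was 1.5 (SE 0.31, 95% interval 0.81 to 2.19, adjusted p = 0.0259). By edgeR the call was lost without WT replicate 1 or 2 (adjusted p = 0.0852 and 0.0798) or without APP/PS1 replicate 2, 3 or 4 (1.32 to 1.55, adjusted p from 0.0514 to 0.0755).

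APP/PS1 replicate 3 was the highest library in Hif1a, Hk2 and Slc16a3, and its summed level of 3 neutrophil markers was 82.3 CPM, against 2.24 to 15.4 CPM in the other 9 libraries. It also had the highest summed levels of microglial markers (3037 CPM) and astrocyte markers (3883 CPM) of all libraries. Without that library the log2 fold changes were 1.19 for Hif1a (adjusted p = 0.0117 by edgeR), 0.77 for Hk2 (adjusted p = 0.0728 by edgeR) and 1.32 for Slc16a3 (adjusted p = 0.0755 by edgeR). The part of the neutrophil, microglial and astrocyte marker levels in these values was not tested.

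Hexokinase 1 and the phosphofructokinases carry the early steps. Hk1, the hexokinase of most brain cells, was 96.9, 117 and 228 CPM in WT and 127 to 139 CPM in APP/PS1, with a log2 fold change of -0.15 (SE 0.24, adjusted p = 0.803). Pfkl, the liver-type phosphofructokinase, was 63.8, 76.2 and 97.0 CPM in WT and 86.9 to 94.8 CPM in APP/PS1. Pfkp, the platelet type, was 184, 204 and 300 CPM in WT and 160 to 187 CPM in APP/PS1, and its log2 fold change was -0.38 (SE 0.18, adjusted p = 0.304). For each of these 3 genes the WT libraries spread over a wider range than the APP/PS1 libraries, and the groups overlapped.

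The later enzymes gave a like picture. Aldoa, which splits fructose 1,6-bisphosphate, was 220.0, 291 and 738 CPM in WT and 365 to 516 CPM in APP/PS1 (log2 fold change 0.04, SE 0.35, adjusted p = 0.972). Pgk1, the first ATP-yielding step, was 48.5, 48.8 and 119 CPM in WT and 65.7 to 95.2 CPM in APP/PS1. Pgk1 lies on the X chromosome, where the Xist difference given above also lies. Pkm, pyruvate kinase, was 185, 208 and 422 CPM in WT and 306 to 373 CPM in APP/PS1 (log2 fold change 0.27, SE 0.26, adjusted p = 0.658), and gene counts do not separate its splice forms. Ldha, which makes lactate from pyruvate, was 60.3, 64.9 and 112 CPM in WT and 87.3 to 106 CPM in APP/PS1 (log2 fold change 0.30, SE 0.20, adjusted p = 0.507). In all 4 genes WT replicate 3 lay above every APP/PS1 library, and the other 2 WT libraries lay below every APP/PS1 library.

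WT replicate 3 was the highest of all 10 libraries in 7 of the 10 genes, namely Hk1, Pfkl, Pfkp, Aldoa, Pgk1, Pkm and Ldha. It was not in Hif1a, Hk2 or Slc16a3, where it was close to the other WT libraries. For Aldoa it was 2.89 times the mean of the other WT libraries, and for Pgk1 and Pkm it was 2.45 and 2.15 times that mean. Without WT replicate 3, edgeR's quasi-likelihood test called 5 of the 10 genes, where 4.83% of all genes were called against 3.47% with all libraries. Pkm (log2 fold change 0.75, adjusted p = 0.0215) and Ldha (0.65, adjusted p = 0.0232) were added to Hif1a (1.30), Hk2 (0.80) and Slc16a3 (1.55). Hk1 turned from -0.15 to 0.32, and 9 of the 10 genes were then higher. WT replicate 3 is singled out here for its high values in 7 of these genes. Their rise without it follows from that choice and is no separate evidence. The WT group was then replicates 1 and 2 alone, and the share of all genes higher in that fit is not given here. The part of that library's high neuronal marker level in these values was not tested.

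**Figure D3:**
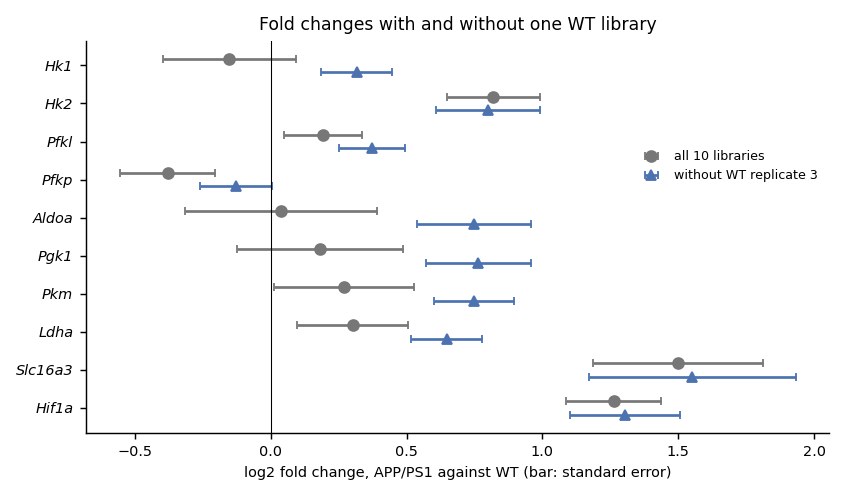
Log2 fold changes of the 10 genes in APP/PS1 against WT from the fit with all 10 libraries (circles) and from the fit without WT replicate 3 (triangles); bars are standard errors. Hif1a, Hk2 and Slc16a3 hardly move, while Aldoa, Pgk1, Pkm and Ldha move to between 0.65 and 0.76.

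The libraries carry numbers 1 to 10 in the labels, and each group has libraries numbered 1 to 6 and others numbered 7 to 10. WT replicate 3 is the only WT library of the second set. Hif1a was higher in APP/PS1 in both sets, by 1.07 and 1.40 on the log2 scale. Hk2 was higher by 0.65 and 1.02, and Slc16a3 by 1.19 and 1.62. For 6 of the 10 genes the direction differed between the sets. Aldoa, for example, was 0.56 higher in libraries 1 to 6 and differed by -0.62 in libraries 7 to 10, where the WT value comes from WT replicate 3 alone.

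The second comparison asked what N-AS treatment changed in APP/PS1 mice. Hif1a and Hk2 had lower values in all 3 N-AS libraries than in all 4 APP/PS1 libraries, but no gene of the set passed the adjusted test. In this comparison 0% of all genes tested were called by edgeR, so that its count of 0 of 10 is also the background. At an unadjusted p under 0.05, 2 of the 10 genes were lower, against 8.83% of all genes in either direction and 4.05% lower. Groups did not overlap in 12.7% of all genes, with N-AS lower in 6.46% and higher in 6.26%. DESeq2 and limma also called 0 of the 10. The median log2 fold change of the set was -0.23, against -0.01 over all genes, with 9 genes lower and 1 higher. Microglial markers moved in the same direction, all 12 being lower with a median of -0.63 and 0 called. Their part in the values below was not tested.

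Hif1a was 135, 157 and 128 CPM in N-AS replicates 1 to 3, a mean of 140.1 ± 15.04 CPM (SD, n = 3). All N-AS libraries lay between the highest WT library and the lowest APP/PS1 library. Against APP/PS1 the log2 fold change was -0.62 (SE 0.17, 95% interval -0.998 to -0.246), with an unadjusted edgeR p of 0.00395 and an adjusted p of 0.494. Hk2 was 35.5, 39.1 and 27.0 CPM in N-AS replicates 1 to 3, against 39.6 CPM in the lowest APP/PS1 library. Replicate 2 lay only just under that library, and replicate 3 lay within the WT range. The log2 fold change of Hk2 was -0.42 (SE 0.17, adjusted p = 0.531 by edgeR).

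Slc16a3 was 6.39, 5.46 and 2.73 CPM in N-AS replicates 1 to 3, so that replicate 1 lay within the APP/PS1 range, replicate 2 just under it and replicate 3 at the WT level. Its log2 fold change was -0.65 (SE 0.30, adjusted p = 0.571 by edgeR). N-AS replicate 3 was the lowest N-AS library in Hif1a, Hk2 and Slc16a3, and it was also the lowest N-AS library in mean microglial marker level and the one with few Xist reads. Without it the log2 fold changes were -0.55 for Hif1a, -0.27 for Hk2 and -0.36 for Slc16a3. Within libraries 1 to 6 the differences of Hif1a, Hk2 and Slc16a3 were -0.33, -0.14 and -0.08, and within libraries 7 to 10 they were -0.95, -0.87 and -1.65, the latter resting on N-AS replicate 3 alone.

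None of the other enzymes passed the test, and their ranges mostly overlapped those of APP/PS1. Pfkp was the exception in direction, at 192, 190.3 and 217 CPM in N-AS against at most 187 CPM in APP/PS1 (log2 fold change 0.18, SE 0.18, adjusted p = 0.805 by edgeR). Aldoa was 316, 346 and 427 CPM in N-AS replicates 1 to 3, and Pkm was 276, 286 and 310 CPM. Pgk1 was 58.3, 54.4 and 78.9 CPM, and Ldha was 76.6, 86.5 and 88.0 CPM. In all 4 of these genes 1 or more N-AS libraries lay within the APP/PS1 range. Their log2 fold changes were -0.24 (SE 0.35) for Aldoa, -0.17 (SE 0.26) for Pkm, -0.36 (SE 0.31) for Pgk1 and -0.22 (SE 0.20) for Ldha. Hk1 was 121 to 138 CPM and Pfkl 78.5 to 86.9 CPM, with log2 fold changes of -0.04 and -0.13.

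**Figure D4:**
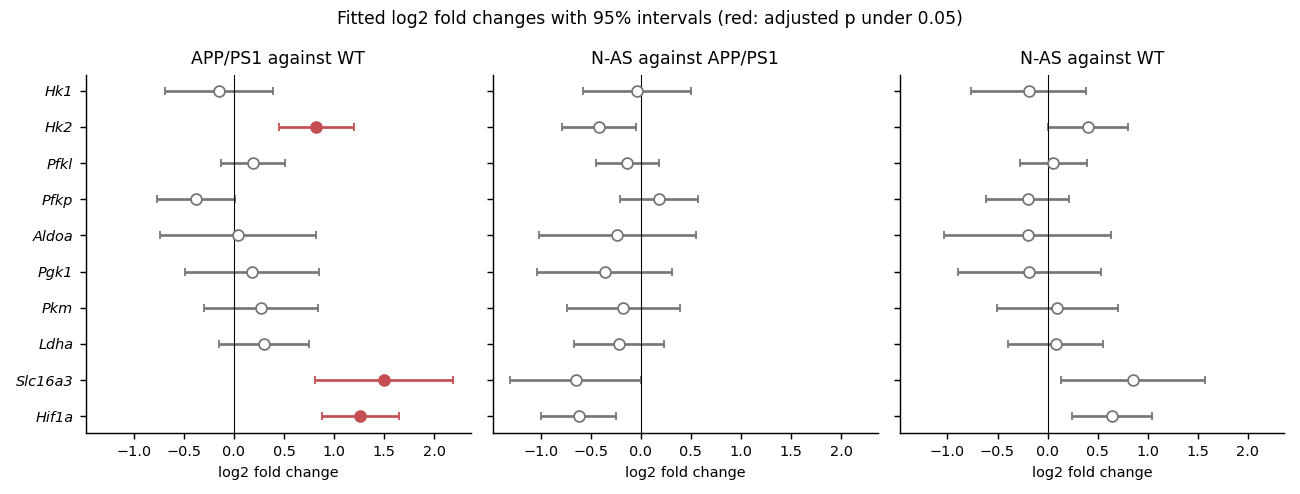
Fitted log2 fold changes of the 10 genes with 95% intervals in the 3 comparisons; red filled points passed an adjusted p under 0.05. Only Hif1a, Hk2 and Slc16a3 in APP/PS1 against WT are red, and their values in N-AS against APP/PS1 are negative.

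Against WT, N-AS cells held higher Hif1a in every library, while the enzymes with a large WT spread could not be separated. None of the 10 genes was called, where 0.187% of all genes were called. At an unadjusted p under 0.05, Hif1a, Hk2 and Slc16a3 were higher, beside 6.73% of all genes in either direction and 3.64% higher. Only for Hif1a did the groups not overlap, as in 8.81% of all genes, 4.9% with N-AS higher. DESeq2 and limma called 0 of the 10 here as well. The log2 fold changes were 0.64 for Hif1a (SE 0.18, adjusted p = 0.358 by edgeR), 0.40 for Hk2 (SE 0.18, adjusted p = 0.724 by edgeR) and 0.85 for Slc16a3 (SE 0.33, adjusted p = 0.657 by edgeR). This comparison shares its libraries with both other comparisons. The mean of the N-AS group lay between those of WT and APP/PS1 in 7 of the 10 genes. The share of all genes with this order is not given here, so the count shows nothing particular to the set. For Pfkl, Pfkp, Pkm and Ldha, which are among them, the WT mean includes the high WT replicate 3.

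The genes were also set against the microglial markers, as each gene's log2 CPM less the mean log2 CPM of the 12 markers. That mean was 1.43 higher in APP/PS1 than in WT, so the subtraction moves every gene down by this amount in the comparison. All 10 genes were then lower in APP/PS1, as were 98.7% of all genes tested, and 8 were lower without overlap, as were 80.4% of all genes. The median difference was -1.10 for the 10 genes and -1.48 for all genes. Hif1a differed by -0.18 and Slc16a3 by -0.01, and for both the groups overlapped. Hk2 differed by -0.61, and its groups did not overlap. In N-AS against APP/PS1 the marker mean was lower, with log2 fold changes of the markers from -1.20 to -0.24. There the median was 0.37 for the 10 genes and 0.59 for all genes, and Hif1a differed by -0.01. These values are descriptions without a test, and the counts show nothing particular to the 10 genes.

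Ratios of reads between isozymes within a library do not depend on library scaling, and 3 such ratios were computed. Pfkp to Pfkl was 2.88, 2.67 and 3.09 in WT, 2.12, 2.04, 1.84 and 1.80 in APP/PS1 and 2.44, 2.19 and 2.66 in N-AS replicates in order. The 3 groups did not overlap, and APP/PS1 libraries held the least platelet-type mRNA relative to liver-type mRNA. The gap between N-AS and WT was narrow, at 2.66 against 2.67. No share of other gene pairs is given beside this. Hk2 to Hk1 ran from 0.107 to 0.319 over WT libraries, from 0.285 to 0.401 over APP/PS1 libraries and from 0.195 to 0.324 over N-AS libraries, with overlap between all groups. Ldha to Ldhb, the subunit that favours pyruvate formation, ran from 0.684 to 0.934 over WT libraries, from 0.878 to 1.04 over APP/PS1 libraries and from 0.791 to 0.982 over N-AS libraries, also with overlap. These read ratios include the genes' different lengths and were not tested.

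**Figure D5:**
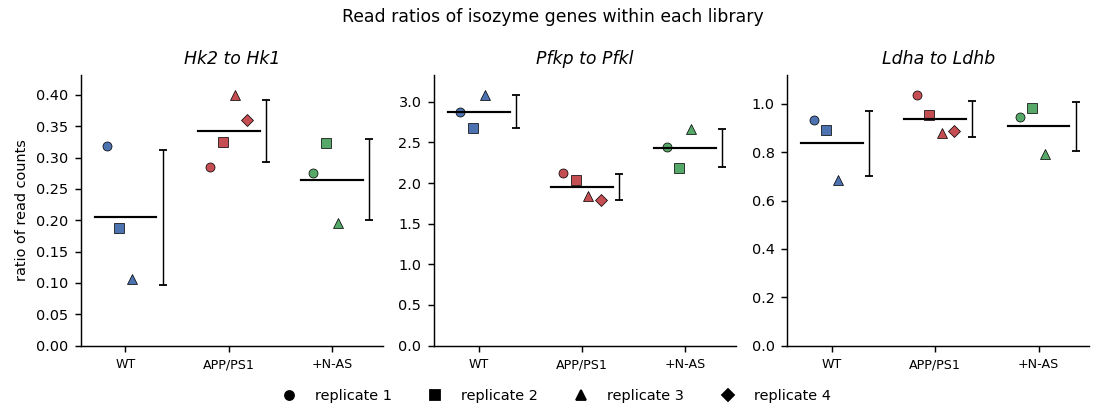
Ratios of read counts of Hk2 to Hk1, Pfkp to Pfkl and Ldha to Ldhb in each library; each symbol is a library, the line is the group mean and the bar is 1 SD. The 3 groups do not overlap for Pfkp to Pfkl, with WT highest and only a narrow gap between WT and N-AS. They overlap for the other ratios.

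Per kilobase of merged exon, Aldoa was the most abundant of the set in every group, at 143 ± 96.5 CPM per kb in WT (SD, n = 3) and 147 ± 23.4 CPM per kb in APP/PS1 (SD, n = 4). Pkm followed at 54.3 and 65.5 CPM per kb. Hk2 and Slc16a3 were the lowest in every group. Hif1a was 7th in WT at 15.2 ± 1.84 CPM per kb, 3rd in APP/PS1 at 36.6 ± 6.48 CPM per kb and 5th in N-AS at 23.8 ± 2.55 CPM per kb. In APP/PS1 it stood beside Pgk1 at 36.5 ± 6.24 CPM per kb, and this neighbour did not differ from it beyond the spread between libraries. Of the lactate dehydrogenases, Ldhb was more abundant than Ldha per kilobase, at 66.8 and 29.4 CPM per kb in APP/PS1.

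The rest of glycolysis was read from 14 further enzymes. In APP/PS1 against WT, 1 of the 14 was called higher and 0 lower, with a median log2 fold change of -0.03. The called gene was Hk3, the hexokinase typical of myeloid cells, at 4.64, 3.28 and 5.21 CPM in WT and 6.90, 10.2, 10.4 and 11.3 CPM in APP/PS1 (log2 fold change 1.15, SE 0.25, adjusted p = 0.0297 by edgeR). Its groups did not overlap. Ldhb was not called, with a log2 fold change of 0.06 (SE 0.30, adjusted p = 0.941 by edgeR). Reads of the enolase Eno1 may be divided with its near-identical copy Eno1b, which had 1429 to 9070 reads in a library, so its low level is uncertain. Eno1 is named for that reason, after its value was seen.

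Transporters and regulators held no called gene in any comparison. The 9 sugar, lactate and pyruvate transporters had a median log2 fold change of 0.01 in APP/PS1 against WT. The fructose transporter Slc2a5 had a value of 0.47 (SE 0.27, adjusted p = 0.419 by edgeR) and Slc2a3, a neuronal glucose transporter, of -0.34 (SE 0.25, adjusted p = 0.564 by edgeR). Among 9 regulators of flux, Pdk1, which inhibits pyruvate dehydrogenase, had a value of 0.41 (SE 0.14, adjusted p = 0.151 by edgeR). Pfkfb2, which makes the activator fructose 2,6-bisphosphate, had a value of -0.39 (SE 0.16, adjusted p = 0.231 by edgeR). The median of that list was -0.21.

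HIF partners and oxygen sensors gave 0 called of 9 in every comparison. The prolyl hydroxylases Egln1 and Egln3, which mark HIF-1α for destruction when oxygen is present, had log2 fold changes of 0.45 (SE 0.12, adjusted p = 0.0759 by edgeR) and 0.63 (SE 0.20, adjusted p = 0.125 by edgeR) in APP/PS1 against WT. Of 15 known HIF targets outside glycolysis, 2 were called higher and 0 lower, with a median of 0.06. Ddit4, a stress-induced inhibitor of mTORC1, was one of them and had a value of 0.93 (SE 0.21, adjusted p = 0.0387 by edgeR). Vegfa, a widely used HIF target singled out here after its value was seen, had a value of -0.53 (SE 0.18, adjusted p = 0.146 by edgeR). In N-AS against APP/PS1 and in N-AS against WT, 0 genes of any of these 5 lists were called.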

How the data were processed

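Whole-number read counts per gene were deposited for 10 libraries. Per the labels and methods, the authors depleted ribosomal RNA before stranded library preparation, used TopHat with build mm10, and list edgeR. The annotation and strand setting are not given in the sources used here. Groups and replicate numbers came from the labels, and pool size from the methods. Counts of 103 lines that share 43 symbols were summed. In R 4.3.3, edgeR 4.0.16 (TMM scaling, filterByExpr, quasi-likelihood test, 3 groups in 1 model) tested 18727 genes, all 10 members among them, with Benjamini-Hochberg adjustment. Nothing shows whether mice were independent litters, so p-values measure the spread between libraries. Gene positions and exon lengths came from GENCODE M21 on mm10, and promoters from RefSeq. DESeq2 1.42.0 and limma 3.58.1 were alternatives. The members and lists were chosen with earlier results of these data known. Named genes were all members, Ldhb, and in each list the called genes or otherwise those of lowest p. Same-numbered N-AS and APP/PS1 libraries deviated together (correlations 0.264, 0.164 and 0.323), but so did differently numbered libraries of the same library number set (0.184, 0.199 and 0.302), so the pattern does not single out the replicate number. A replicate block was fitted as well. The test was also run on simulated counts with known changes, but the outcome is not given here and no statement above rests on it. Totals limit precision for Slc16a3 most, with as few as 21 reads. The result of 1 called gene among the HIF targets is not reported here.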

Additional observations from a re-analysis of the deposited data

How the results depend on the processing

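In APP/PS1 against WT, 3 members were called under DESeq2, total counts, upper-quartile scaling, both other filters, the 2 groups alone and the library-number covariate, 2 under limma, and 1 to 5 when a library was left out. Hif1a was called in each of these. Without WT replicate 2, APP/PS1 replicate 2, 3 or 4 only Hif1a was called. With the replicate block over replicates 1 to 3, where the numbers of APP/PS1 and WT mark no pairing (correlations -0.464, 0.429 and -0.0223), 0 members were called. The block left N-AS against APP/PS1 at 0 members, with no call changed there. At an unadjusted p under 0.05, 2 members passed in N-AS against APP/PS1 and 3 in N-AS against WT.

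Over all genes, APP/PS1 against WT called 649, with 1362 under DESeq2, 128 with the replicate block, 410 with the 2 groups alone, 1055 with the covariate, 3221 unadjusted and 299 to 923 leaving out a library. N-AS against APP/PS1 called 0, with 79 under DESeq2, 1653 unadjusted and 0 to 1 leaving out a library. N-AS against WT called 35, with 187 under DESeq2, 20 under limma, 1 with the replicate block, 2 with the 2 groups alone, 64 with the covariate, 1261 unadjusted and 1 to 116 leaving out a library.

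Signs turned for members that were not called. Leaving out a library, log2 fold changes in APP/PS1 against WT ran from -0.27 to 0.75 for Aldoa, -0.035 to 0.76 for Pgk1 and -0.38 to 0.32 for Hk1. In N-AS against WT they ran from -0.50 to 0.51 for Aldoa, -0.41 to 0.28 for Hk1, -0.39 to 0.40 for Pgk1, -0.33 to 0.049 for Pfkp, -0.077 to 0.42 for Ldha, -0.072 to 0.24 for Pfkl and -0.12 to 0.57 for Pkm. The highest value of each of these came without WT replicate 3. Hk1 in N-AS against APP/PS1 ran from -0.077 to 0.0044 and was 0.010 with the covariate, and Aldoa in N-AS against WT was 0.033 under limma. The cause was not tested. Hif1a, Hk2 and Slc16a3 kept their direction in every comparison in each fit run. Outside the fits this did not hold throughout. Within libraries 7 to 10, with 1 library per group, Slc16a3 differed by -0.03 in N-AS against WT. Relative to the microglial markers, Hif1a, Hk2 and Slc16a3 were lower in APP/PS1 than in WT.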
